A study of Mus musculus with 12 samples.

Results

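The late step of laminin passaging in the wild-type clone was examined as 2 arrays of WT cells after 8 laminin passages (L8) against 2 arrays of WT cells after 4 (L4), chosen by their sample titles, 4 of 12 arrays in all. The cells were fibroblasts (MEF) of female C57BL/6 embryos that had been made immortal by SV-40 large T antigen, and the WT clone carries normal β1 integrin, a subunit of receptors that bind laminin. For each laminin passage cells were plated overnight on laminin in serum-free hybridoma medium, returned to their usual medium, and they were later grown on plastic. Further samples were used for comparison: WT cells before any laminin passage (L0, 2 arrays), and a YYFF clone, whose mutated β1 integrin leaves cytokinesis to fail where cells can hold to the matrix only through that subunit, at L8, L4 and L0 (2 arrays each). Each genotype was 1 clone, and L8 cells had also been longer in culture than L4 cells, so passage on laminin and time in culture cannot be told apart. Nothing in the labels makes the replicates separate cultures, so the spread behind each p-value may be technical.

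Signals were background-corrected, quantile-normalized and put on the log2 scale, on which a difference of 1 is a 2-fold change. A probe was above background where its detection p was under 0.05. Changes are given as log2 change ± SE of a limma model fitted to all 12 arrays (6 groups, n = 2 each), with Benjamini-Hochberg adjustment over 8891 genes and a threshold of 0.05. The total signal of the L8 arrays was 15119237 and 15165560, against 16047771 and 13916428 for the L4 arrays, and 43.7% to 44.6% of probes were above background at L8, against 41.8% to 44.3% at L4. Across genes the L8 replicates correlated with r = 0.993 and the L4 replicates with r = 0.989, while L8 and L4 arrays correlated with each other at 0.971 to 0.976. Itgb1, the gene of the β1 subunit, gave 8.40 and 8.22 at L8, against 8.37 and 8.73 at L4, a log2 change of -0.24 ± 0.15 (adjusted p = 0.307). Of 10 fibroblast markers, 7 were above background on all 4 arrays, while 7 of 8 leukocyte markers and 8 of 8 endothelial markers were above background on none of the 4. The remaining leukocyte marker, Cd14, gave 8.28 and 8.19 at L8, against 8.39 and 7.99 at L4. The fibroblast markers Col1a2, Thy1 and Prrx1 were above background on none of the 4. Above background on all 4 were also 3 of 5 neural markers (Map2, Sox2 and Nes) and 3 of 6 cartilage or bone markers. The same held for 1 of 7 skeletal muscle markers, 1 of 6 adipocyte markers and 0 of 7 epithelial markers.

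At L8 the antiviral genes of the interferon response were far lower in the WT clone than at L4, and the enzymes of cholesterol synthesis were higher. A further group, with the collagenase Mmp13 and the cartilage collagen Col2a1 among its members, was higher at L4 than at L0 and fell by L8. Some of its members stayed above their L0 level at L8 and others ended below it. In the limma fit 1745 of 8891 genes (19.6%) passed the threshold, 957 of them higher at L8 (10.8%) and 788 lower (8.86%). Of these, 370 changed at least 2-fold, 210 higher and 160 lower, and the median log2 change over all genes was 0.01. The shares of 10.8% higher and 8.86% lower are the background for the list counts of the late step below. The 4 most negative fitted changes were in Usp18, Oasl2, Isg15 and Mmp13 (-5.96 to -4.87), while the largest rise among genes above background on all 4 arrays was 2.83, in Ly6c1. Under median scaling in place of quantile normalization 865 passed (550 higher, 315 lower), and with the 4 compared arrays fitted alone 890. The total of 1745 was 1132 without L4 replicate 2, 1023 without L8 replicate 1 and 887 without L8 replicate 2, each fit having 1 array fewer in a group of 2. In these bulk samples a smaller share of expressing cells and less RNA per cell cannot be told apart.

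**Figure D1:**
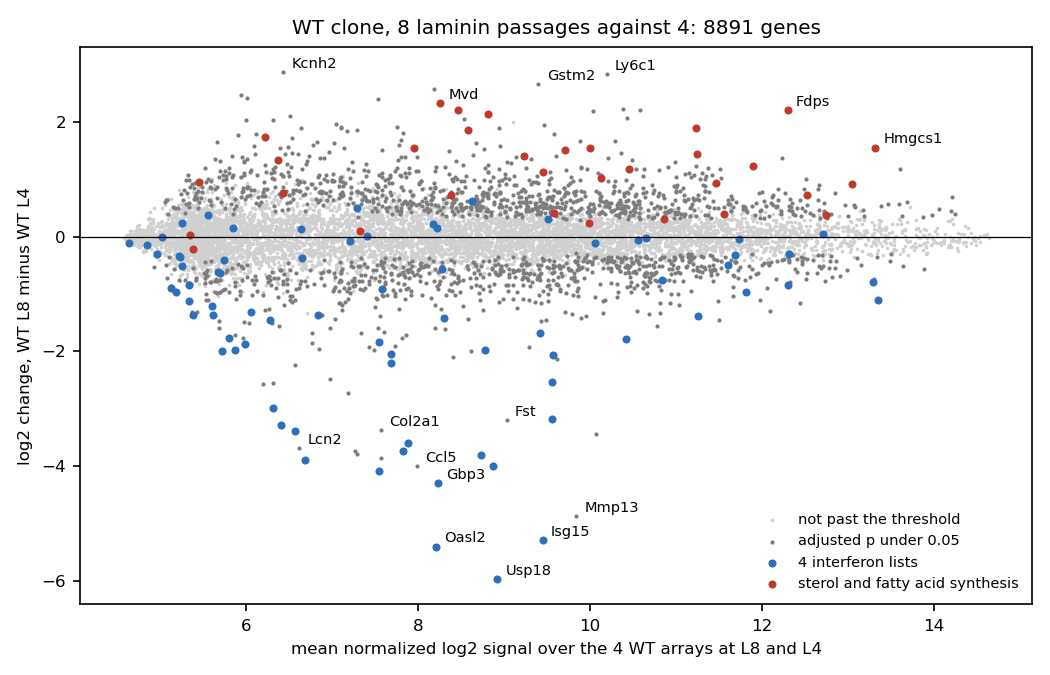
Each point is a gene, with the mean normalized log2 signal of the 4 WT arrays at L8 and L4 on the x axis and the log2 change, L8 minus L4, on the y axis. Usp18 (-5.96), Oasl2 (-5.40) and Isg15 (-5.29) lie lowest among the members of the interferon lists (blue), and Mvd (2.33) lies highest among the sterol and fatty acid synthesis genes (red).

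Type I interferons act through the receptor-bound kinases Jak1 and Tyk2, and the transcription factor they activate binds a promoter sequence called the interferon-stimulated response element (ISRE). Its targets include sensors of viral RNA, enzymes and membrane proteins that block viral growth, GTPases that attack the vacuoles of intracellular microbes, and the machinery that loads peptides on MHC class I molecules. Fibroblasts in culture can keep a part of this programme active without an added virus. To show what the promoters of falling members share, RefSeq promoter sequences (build GRCm38.p6, 250 bases before to 50 after the transcription start) were searched on both strands for the ISRE core, taken as GAAA, any 2 bases and GAAA again, a match being a description of the letters and not evidence of binding. Of the 46 members of 4 interferon lists that fell, 35 had a listed promoter and 19 of these (54.3%) held the core, compared with 7 of 26 (26.9%) for the other tested members, 266 of 7278 (3.65%) for all tested genes and 1079 of 27025 (3.99%) for all genes listed. The 4 members with the largest falls among those with a match are shown 5′ to 3′ on the strand of the gene, with the matches in capitals: Isg15 (chr4:156200769-156201068, minus strand), Gbp3 (chr3:142559794-142560093, plus strand), Igtp (chr11:58199306-58199605, plus strand) and Bst2 (chr8:71537423-71537722, minus strand).
Isg15: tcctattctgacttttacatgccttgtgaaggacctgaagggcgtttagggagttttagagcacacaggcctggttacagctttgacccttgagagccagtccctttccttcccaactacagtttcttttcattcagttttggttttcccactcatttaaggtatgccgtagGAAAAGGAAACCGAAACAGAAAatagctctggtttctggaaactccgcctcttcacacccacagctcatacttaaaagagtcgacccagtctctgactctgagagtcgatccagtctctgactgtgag
Gbp3: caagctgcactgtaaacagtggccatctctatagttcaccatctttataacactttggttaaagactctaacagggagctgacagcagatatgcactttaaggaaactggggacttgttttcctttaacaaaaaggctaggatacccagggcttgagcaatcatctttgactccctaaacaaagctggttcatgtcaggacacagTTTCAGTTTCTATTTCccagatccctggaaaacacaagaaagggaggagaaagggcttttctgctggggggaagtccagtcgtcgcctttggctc
Igtp: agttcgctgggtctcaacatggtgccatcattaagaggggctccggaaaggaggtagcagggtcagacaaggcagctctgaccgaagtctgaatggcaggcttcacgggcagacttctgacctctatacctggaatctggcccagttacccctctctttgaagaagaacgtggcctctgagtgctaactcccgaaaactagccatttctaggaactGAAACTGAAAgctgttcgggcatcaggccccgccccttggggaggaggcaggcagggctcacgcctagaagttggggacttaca
Bst2: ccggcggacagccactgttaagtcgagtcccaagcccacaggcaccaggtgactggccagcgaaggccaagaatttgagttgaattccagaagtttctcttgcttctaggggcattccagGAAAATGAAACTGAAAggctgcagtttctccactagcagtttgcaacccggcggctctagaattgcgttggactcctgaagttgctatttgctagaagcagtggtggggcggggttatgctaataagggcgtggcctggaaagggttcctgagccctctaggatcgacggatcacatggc
In Isg15 there are 3 overlapping matches that begin 78, 72 and 66 bases before the start. In Gbp3 both matches lie on the opposite strand, so that the boxes read TTTC here, and begin 45 and 39 bases before the start. The single match of Igtp begins 34 bases before the start, and the overlapping pair of Bst2 130 and 124 bases before it.

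Of 30 tested antiviral effectors, 25 fell and 0 rose (background 8.86% lower and 10.8% higher), with a median log2 change of -1.83, or -1.43 with 7 members set at their bound. Isg15, a ubiquitin-like protein that is coupled to other proteins, gave 6.67 and 6.94 at L8, against 12.20 and 11.99 at L4 (-5.29 ± 0.14, adjusted p = 6.35e-08). Its groups lie far apart, and the same holds for the oligoadenylate synthetase relative Oasl2, with 5.55 and 5.47 at L8, against 10.79 and 11.03 at L4 (-5.40 ± 0.13, adjusted p = 5.35e-08). Oasl2 was above background on 1 of the 2 L8 arrays. Bst2, or tetherin, which holds budding virus at the cell surface, gave 6.59 and 7.07 at L8, against 10.67 and 10.61 at L4 (-3.81 ± 0.33, adjusted p = 0.00013). Ifit3, a member of a family that binds viral RNA, gave 7.98 and 7.96 at L8, against 11.14 and 11.15 at L4 (-3.18 ± 0.09, adjusted p = 8.67e-08).

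Several effectors were above background on both L4 arrays and on neither L8 array, so their change has only a bound, the L4 mean over the higher of the gene's own L8 value and the lowest signal above background. Mx2, a dynamin-like GTPase that blocks viruses, gave 4.80 and 4.67 at L8, against 8.65 and 8.60 at L4, and was at least 8.69-fold lower at L8 (adjusted p = 8.67e-08). Parp14, an ADP-ribosyltransferase, was at least 6.71-fold lower, with 4.93 and 4.82 at L8, against 8.19 and 8.33 at L4 (adjusted p = 2.29e-06). Oasl1 was at least 4.90-fold lower, Rtp4 at least 2.67-fold, Oas2 at least 2.31-fold and Rsad2, or viperin, at least 2.27-fold. Outside the lists, Phf11d had 2 probes. That with the higher mean over all arrays gave 5.43 and 5.37 at L8, not above background, against 9.20 and 9.08 at L4 (adjusted p = 2.68e-06), and the other, above background on all 4 arrays, gave 5.99 and 5.72 at L8, against 9.07 and 8.92 at L4 (-3.14 ± 0.15). Oas1g fell by 3.74 ± 0.11, but the probe may not separate it from its near-identical relatives such as Oas1a, whose probe was above background on 1 of the 4 arrays.

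A few effectors kept a high signal at L8. Ifitm3, a membrane protein that blocks viral entry, gave 12.84 and 12.76 at L8, against 13.89 and 13.94 at L4 (-1.11 ± 0.10, adjusted p = 0.000174). Eif2ak2, the RNA-activated kinase PKR, fell by 1.39 ± 0.13 and the E1 enzyme of Isg15, Uba7, by 1.41 ± 0.16. The 5 members that did not pass were Isg20 (-0.07), Ifit2 (0.31), Ifitm2 (0.05), Parp9 and Trim30a, the last 2 above background on none of the 4 arrays.

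Among 21 tested genes of interferon sensing and signalling, 7 fell and 1 rose, with a median of -0.14. The members that fell were largely ones that interferon itself induces. Usp18, the protease that removes Isg15 and dampens the receptor, gave 5.89 and 5.98 at L8, against 11.92 and 11.88 at L4 (-5.96 ± 0.11, adjusted p = 1.07e-08). Irf9 gave 8.66 and 8.42 at L8, against 10.70 and 10.53 at L4 (-2.07 ± 0.11, adjusted p = 6.67e-06). Its partner Stat2 (-1.36 ± 0.26), the RNA sensor Ddx58 or RIG-I (-1.83 ± 0.31) and the adaptor Myd88 (-0.50 ± 0.10) fell too. Dhx58 was at least 2.55-fold and Irf7 at least 1.47-fold lower at L8. Tyk2 rose (0.62 ± 0.14, adjusted p = 0.0138). Ifnar2 (0.13), Ifngr1 (0.22), Ifngr2 (0.01), Jak1 (0.15), Mavs (0.15), Irf3 (-0.02) and Irf1 (-0.04) did not pass.

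Of 8 interferon-inducible GTPases, 6 fell and 0 rose (median -2.48, or -2.10 with 2 at their bound). Gbp3, a guanylate-binding protein, gave 6.04 and 6.14 at L8, against 10.38 and 10.38 at L4 (-4.29 ± 0.15, adjusted p = 4.8e-07). Igtp, above background on 1 of the 2 L8 arrays, gave 5.54 and 5.47 at L8, against 9.69 and 9.49 at L4 (-4.08 ± 0.15, adjusted p = 7.23e-07), and Irgm2 fell by 3.59 ± 0.15. The highest value at L8 lay below the lowest at L4 in all 3. Gvin1 was at least 5.79-fold lower at L8, and Irgm1 (-0.30) did not pass, although another Irgm1 probe, above background on all 4 arrays, fell by 1.94 ± 0.18 (adjusted p = 0.00018). Gbp7 was above background on none of the 4 arrays. Of 16 genes of MHC class I and antigen processing, 8 fell and 0 rose, with a median of -0.63. The light chain B2m gave 12.89 and 12.89 at L8, against 13.77 and 13.61 at L4 (-0.80 ± 0.12, adjusted p = 0.00249). The immunoproteasome subunit Psmb9 was at least 2.30-fold and the peptide transporter Tap2 at least 1.62-fold lower at L8, while Psmb8 was above background on none of the 4 arrays and H2-K1 on 1. The count of 8 was 5 without either L8 replicate, and the probes of the H2 genes may not separate these near-identical relatives.

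In the early step of the same clone, L4 vs L0, 13 antiviral effectors were lower and 2 higher (median -0.41, background 7.99% lower and 7.49% higher of 8891 genes). That comparison shares the L4 arrays with the late one. Usp18 gave 12.73 and 12.75 at L0, 11.92 and 11.88 at L4, and 5.89 and 5.98 at L8, so its early log2 change was -0.84 ± 0.11 and its late one -5.96 ± 0.11. For Isg15 the early change was -0.84 ± 0.14 and the late one -5.29 ± 0.14. Rsad2 gave 9.48 and 9.39 at L0, 6.60 and 6.78 at L4, and 4.98 and 4.86 at L8, an early change of -2.75 ± 0.13, while its late change has only a bound.

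Chemokines and cytokines, the secreted signals that recruit and activate immune cells, went both ways. Of 18 tested, 6 rose and 4 fell (median -0.23, background 10.8% higher and 8.86% lower). Ccl5, an interferon-inducible chemokine, gave 5.74 and 6.24 at L8, against 9.84 and 10.14 at L4 (-4.00 ± 0.25, adjusted p = 1.72e-05). Cxcl10, above background on 1 of the 2 L8 arrays, gave 5.60 and 5.19 at L8, against 9.47 and 8.89 at L4 (-3.78 ± 0.21, adjusted p = 5.88e-06), and Csf1, the macrophage growth factor, fell by 1.02 ± 0.17. Ccl9 was at least 3.05-fold higher at L8, with 7.15 and 7.29 at L8, against 4.80 and 4.80 at L4, where neither array was above background. The receptor antagonist Il1rn rose by 1.39 ± 0.14, Ccl7 by 1.05 ± 0.19 and Ppbp by 0.71 ± 0.12.

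**Figure D2:**
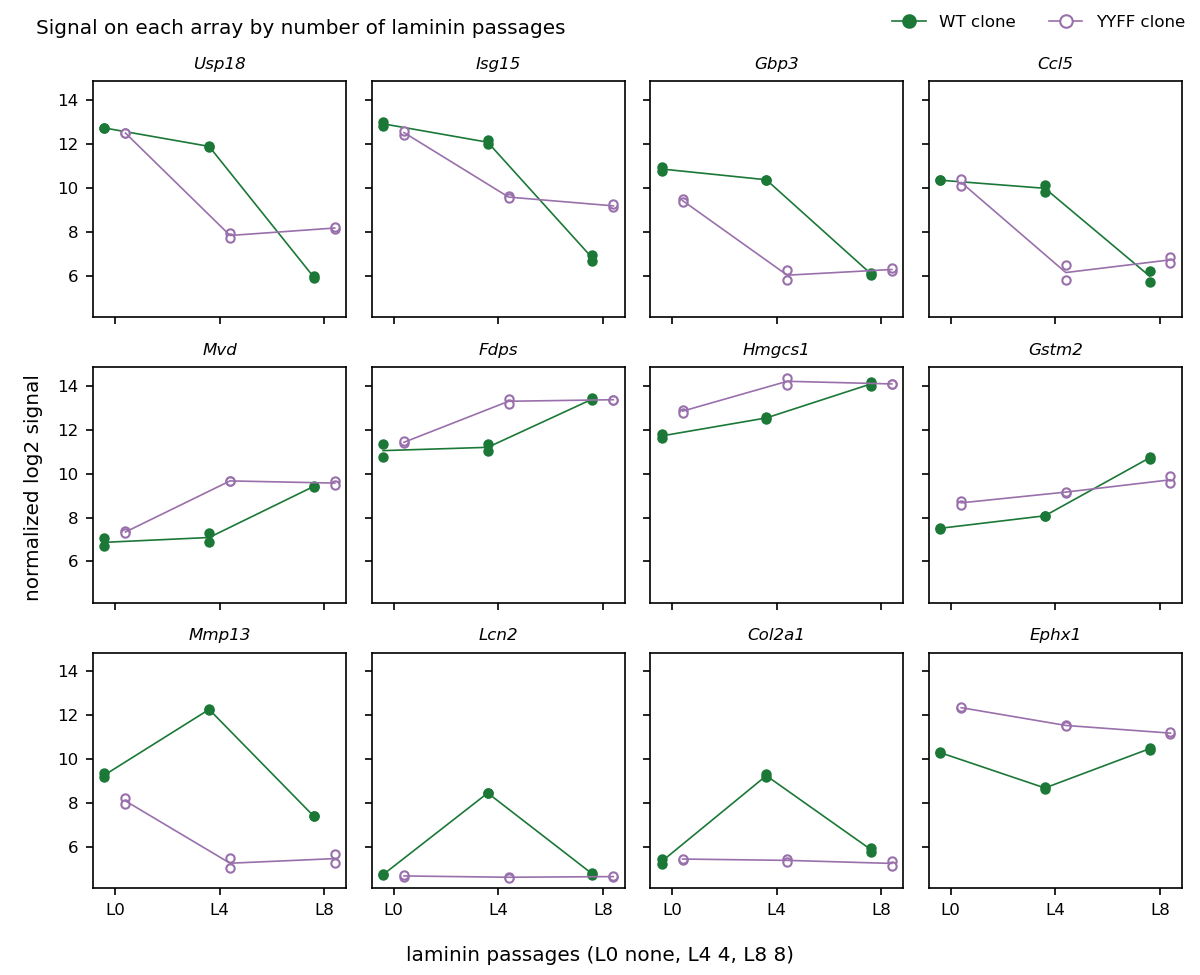
Normalized log2 signal (y axis) of 12 genes on each array at L0, L4 and L8 (x axis), with filled points for the WT clone, open points for the YYFF clone and lines through the group means. WT Usp18 lies at 5.89 and 5.98 at L8, and at 11.92 and 11.88 at L4, and Mmp13, Lcn2 and Col2a1 are higher at L4 than at L0 or L8 in the WT clone.

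Cells make cholesterol from acetyl-CoA through the mevalonate pathway, and the factor Srebf2 raises the pathway's genes together when sterols in the endoplasmic reticulum are low. Of 14 sterol synthesis enzymes tested, 13 rose and 0 fell between L4 and L8, with a median of 1.55. Hmgcs1, which makes HMG-CoA at the head of the pathway, gave 14.00 and 14.18 at L8, against 12.60 and 12.48 at L4 (1.55 ± 0.14, adjusted p = 0.000138). Mvd, which makes isopentenyl diphosphate, gave 9.41 and 9.43 at L8, against 7.31 and 6.87 at L4 (2.33 ± 0.17, adjusted p = 4.09e-05). Fdps, which makes farnesyl diphosphate, gave 13.44 and 13.36 at L8, against 11.36 and 11.04 at L4 (2.20 ± 0.20, adjusted p = 0.000138). The lowest L8 value lay above the highest L4 value in all 3 genes.

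The later steps, from squalene to cholesterol, rose as well. Sqle, which oxidizes squalene, rose by 1.22 ± 0.12, and Lss, which closes the sterol rings, gave 9.96 and 9.80 at L8, against 7.93 and 7.57 at L4 (2.14 ± 0.18, adjusted p = 8.71e-05). Msmo1 (1.89 ± 0.11), Nsdhl (1.85 ± 0.18), Cyp51 (1.55 ± 0.20) and Dhcr7 (1.73 ± 0.22) follow Lss in the pathway. Pmvk (0.72) did not pass. Dhcr7 and Idi1 were above background on 1 of the 2 L4 arrays. Idi1 rose by 1.34 ± 0.35 with a wide spread at L4, where its arrays gave 5.19 and 6.21, against 6.84 and 7.24 at L8, and its call was lost with 1 of the 4 arrays left out (largest adjusted p = 0.152).

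Regulators of the pathway moved less uniformly, with 4 of 10 higher and 2 lower (median 0.28). Insig1, which holds the sterol sensor in the endoplasmic reticulum and is itself a target of Srebf2, gave 9.69 and 9.40 at L8, against 7.64 and 7.38 at L4 (2.04 ± 0.17, adjusted p = 9.26e-05). The sterol carrier Stard4 rose by 1.17 ± 0.10 and Srebf2 by 0.74 ± 0.15, while the lipoprotein receptor Vldlr fell by 1.25 ± 0.14. Srebf1 (0.17), Scap (-0.07) and Npc2 (0.02) did not pass. In fatty acid synthesis 12 of 18 rose and 0 fell (median 0.83, or 0.57 with 1 member at its bound). The desaturase Scd2 gave 9.53 and 9.61 at L8, against 7.27 and 7.45 at L4 (2.21 ± 0.29, adjusted p = 0.00115). Fads2 (1.54 ± 0.18), Elovl6 (1.51 ± 0.09), Scd1 (1.43 ± 0.14) and Acss2 (1.4 ± 0.09), which desaturate, elongate or activate acyl chains, rose too, but the carboxylase Acaca (0.31) did not pass and the synthase Fasn was above background on none of the 4 arrays. Idh1, a cytosolic source of NADPH outside these lists, gave 11.18 and 11.09 at L8, against 8.91 and 8.98 at L4 (2.19 ± 0.20, adjusted p = 0.000157).

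The promoters of the 25 sterol and fatty acid genes that rose were searched for one form of the sterol regulatory element, TCACNCCAC, on both strands. Of 20 with a listed promoter, 1 (5%) held it, Hmgcs1, against 101 of 7278 tested genes (1.39%). It is shown because it is the only member with a match, which begins 137 bases before the start, in capitals (chr13:119690101-119690400, plus strand, GRCm38.p6).
Hmgcs1: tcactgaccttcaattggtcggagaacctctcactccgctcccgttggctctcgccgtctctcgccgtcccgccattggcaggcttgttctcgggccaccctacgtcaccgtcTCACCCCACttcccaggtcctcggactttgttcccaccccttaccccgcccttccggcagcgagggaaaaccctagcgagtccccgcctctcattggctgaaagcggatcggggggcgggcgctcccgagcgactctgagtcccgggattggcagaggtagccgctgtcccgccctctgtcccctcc

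In the early step the sterol enzymes had 2 of 14 higher and 0 lower, with a median of 0.14, against 1.55 in the late step, which shares the L4 arrays. Hmgcs1 was 1 of the 2, with 11.83 and 11.61 at L0, 12.60 and 12.48 at L4, and 14.00 and 14.18 at L8. Mvd gave 7.06 and 6.68 at L0, 7.31 and 6.87 at L4, and 9.41 and 9.43 at L8, so nearly all of its difference lay in the late step.

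Glutathione transferases, which couple glutathione to reactive compounds, rose in 8 of 17 cases and fell in 0 (median 0.61). Gstm2 gave 10.67 and 10.77 at L8, against 8.07 and 8.09 at L4 (2.65 ± 0.12, adjusted p = 2.11e-06), and the membrane-bound Mgst1 gave 8.22 and 7.91 at L8, against 6.23 and 6.07 at L4 (1.91 ± 0.22, adjusted p = 0.000478). Gstm1 rose by 1.45 ± 0.20, and the probes of the Gstm genes may not separate these similar copies. The count of 8 was 5 without L4 replicate 1 or without L8 replicate 1. A list of Nfe2l2, the factor of the antioxidant response, with Keap1 and other antioxidant genes gave 4 of 18 higher and 2 lower (median 0.05). Over all genes 10.8% were higher and 8.86% lower. At an unadjusted p under 0.05 in the limma fit, 7 of the 18 were higher and 2 lower. Ephx1 rose by 1.79 ± 0.09, while the standard targets Nqo1 (0.31), Hmox1 (0.21) and Gclm (-0.22) did not pass. The carbonyl reductase Cbr2, outside this list, gave 11.64 and 11.74 at L8, against 9.49 and 9.47 at L4 (2.21 ± 0.21, adjusted p = 0.000205). In iron handling, 1 of 10 genes rose, near the share of all genes, and 3 fell (median -0.07). The iron exporter Slc40a1, or ferroportin, gave 8.78 and 8.68 at L8, against 6.48 and 6.20 at L4 (2.39 ± 0.13, adjusted p = 4.94e-06), while the transferrin receptor Tfrc fell by 0.53 ± 0.12.

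For these lists with 0 genes called in one direction, the count there at an unadjusted p under 0.05 in the same limma fit was 1 for antiviral effectors (higher) and 0 for the GTPases, MHC class I, basement membrane and MAPK feedback genes (higher) and for the sterol, fatty acid and glutathione transferase genes (lower).

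**Figure D3:**
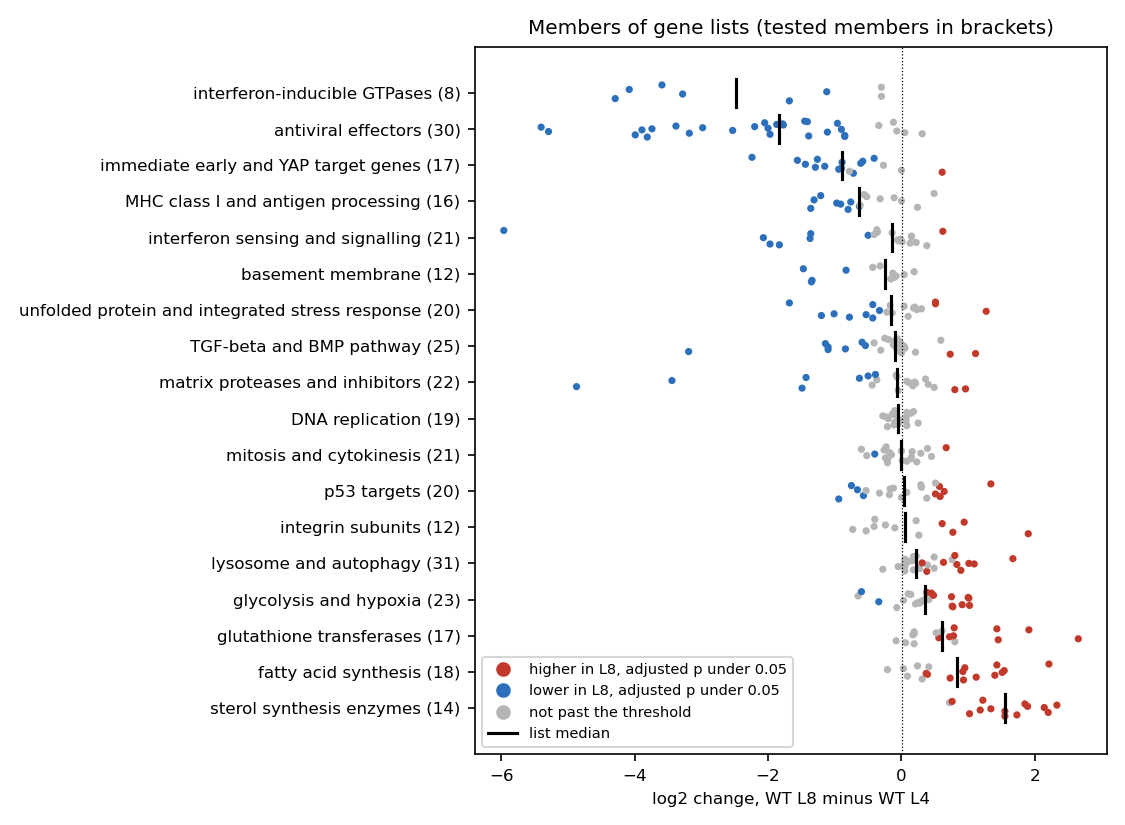
Each point is a tested member of a gene list, placed by its log2 change, WT L8 minus WT L4 (x axis), with the list's median as a bar and the median of all genes (0.01) as a dotted line. The medians run from -2.48 for the interferon-inducible GTPases to 1.55 for the sterol synthesis enzymes.

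Matrix metalloproteinases cut collagens and other matrix proteins and are made by activated fibroblasts. Of 22 proteases and inhibitors, 7 fell and 2 rose (median -0.06, background 8.86% lower and 10.8% higher). Mmp13, an interstitial collagenase, gave 7.41 and 7.39 at L8, against 12.30 and 12.23 at L4 (-4.87 ± 0.19, adjusted p = 8.41e-07), and its 2 dimmer probes gave -3.36 and, without passing, -0.45. Mmp3, or stromelysin-1, gave 8.23 and 8.48 at L8, against 11.62 and 11.96 at L4 (-3.44 ± 0.16, adjusted p = 2.57e-06). The related Mmp10 was at least 2.31-fold lower, the urokinase receptor Plaur fell by 1.43 ± 0.13 and its ligand Plau by 0.63 ± 0.15. Mmp2 (0.21), Mmp14 (0.17) and Timp2 (-0.08) did not pass, and the aggrecanases Adamts5 (0.96 ± 0.18) and Adamts4 (0.80 ± 0.24) rose.

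Of 19 interstitial matrix genes 2 rose and 2 fell (median -0.07). These shares are near those of all genes tested (10.8% higher and 8.86% lower). Col1a1 (0.18) and Col3a1 (-0.08) were among those that did not pass. Tnc, a glycoprotein of injured and embryonic tissue that was above background on 1 of the 2 L8 arrays, gave 6.16 and 5.49 at L8, against 8.58 and 8.50 at L4 (-2.72 ± 0.20, adjusted p = 4.26e-05), while the collagen cross-linker Lox rose by 0.89 ± 0.10. Of 12 basement membrane genes 4 fell and 0 rose (median -0.24). The laminin chain Lamc1 gave 8.81 and 8.60 at L8, against 10.13 and 10.21 at L4 (-1.47 ± 0.13, adjusted p = 0.000131), and Agrn (-1.35 ± 0.11) and Col18a1 (-1.34 ± 0.16) fell too. Of 12 integrin subunits 4 rose and 0 fell (median 0.06), with 3 lower at an unadjusted p under 0.05. The collagen receptor subunit Itga11 gave 8.58 and 8.84 at L8, against 6.57 and 7.05 at L4 (1.90 ± 0.18, adjusted p = 0.000166). Of the subunits of laminin receptors, Itga3 (0.77 ± 0.16) and Itgb4 (0.94 ± 0.21) rose and Itga6 (-0.73) did not pass.

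The list of hyaluronan and heparan sulfate genes holds enzymes that build or degrade these polysaccharides, core proteins that carry them and receptors. It gave 4 rises and 6 falls among 21 genes (median -0.01, background 10.8% higher and 8.86% lower). Hs3st3a1, which adds sulfate to heparan chains, gave 9.50 and 9.44 at L8, against 6.89 and 6.90 at L4 (2.57 ± 0.12, adjusted p = 2.02e-06). The hyaluronan synthase Has2 gave 6.44 and 6.55 at L8, against 8.46 and 8.50 at L4 (-1.98 ± 0.15, adjusted p = 5.04e-05), and the hyaluronan receptor Cd44 fell by 0.64 ± 0.10, although another of its probes had the opposite sign.

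Immediate early genes are induced within minutes by growth factors, and the list also held targets of the mechanically regulated coactivator YAP. Of 17 tested, 13 fell and 1 rose (median -0.89). Myc, a growth-promoting factor, gave 5.49 and 5.42 at L8, against 7.76 and 7.62 at L4 (-2.24 ± 0.24, adjusted p = 0.000382). Myc and Klf2 were above background on 1 of the 2 L8 arrays. Egr1 gave 11.35 and 11.55 at L8, against 12.58 and 12.89 at L4 (-1.29 ± 0.12, adjusted p = 0.000194). Klf2 (-1.56 ± 0.12), the AP-1 subunits Fos (-1.44 ± 0.19) and Jun (-0.89 ± 0.18), and the matricellular YAP targets Ccn1 (-0.94 ± 0.16) and Ccn2 (-0.90 ± 0.09) fell, and the YAP target Ankrd1 rose (0.61 ± 0.18, adjusted p = 0.0437). Of 7 MAPK feedback genes 1 fell, the ERK phosphatase Dusp6 (-1.13 ± 0.10), and 0 rose (median -0.05).

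Among 25 genes of the TGF-β and BMP pathway 7 fell and 2 rose (median -0.10, background 8.86% lower and 10.8% higher). Fst, a secreted trap for activin, gave 7.34 and 7.53 at L8, against 10.86 and 10.39 at L4 (-3.19 ± 0.18, adjusted p = 8.24e-06). The activin subunit Inhba fell by 1.10 ± 0.12 and the BMP target Id1 by 1.10 ± 0.10, while Bmp4 rose by 1.11 ± 0.16. In the unfolded protein and integrated stress response 8 of 20 fell and 3 rose (median -0.15). Those that fell included Atf4 (-0.78 ± 0.16), the factor of the amino acid branch, and its targets Trib3 (-1.68 ± 0.19) and Chac1 (-1.20 ± 0.10), while the chaperones Hspa5 (0.30) and Hsp90b1 (0.23) did not pass. The count of 8 falls was 3, 4, 3 and 2 without L4 replicate 1, L4 replicate 2, L8 replicate 1 and L8 replicate 2, and 3 under median scaling.

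In glycolysis and hypoxia 10 of 23 rose and 2 fell (median 0.36, background 10.8% higher and 8.86% lower). The kinase Pdk1 (1.01 ± 0.16) and the phosphofructokinase Pfkm (0.75 ± 0.13) were among those that rose. Lysosome and autophagy genes rose in 9 of 31 cases and fell in 0 (median 0.22, and 0 lower at an unadjusted p under 0.05). The sialidase Neu1 gave 11.09 and 11.18 at L8, against 9.44 and 9.49 at L4 (1.67 ± 0.10, adjusted p = 9.88e-06). Of 19 DNA replication genes 0 passed in the limma fit (log2 changes -0.28 to 0.25, and 1 with an unadjusted p under 0.05, lower at L8), and of 21 mitosis and cytokinesis genes 1 rose and 1 fell. Of 20 p53 targets 5 rose and 4 fell (median 0.04), and of 16 G1 regulators 2 rose and 1 fell (median 0.00). Over all genes 10.8% rose and 8.86% fell, and the shares of the G1 regulators are near these. The CDK inhibitor Cdkn2b gave 11.69 and 11.72 at L8, against 10.54 and 10.67 at L4 (1.10 ± 0.11, adjusted p = 0.0002), while Cdkn1a fell by 0.57 ± 0.15.

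Several of the largest changes belonged to none of these groups. Ly6c1, a GPI-anchored surface protein, gave 11.66 and 11.55 at L8, against 8.75 and 8.81 at L4 (2.83 ± 0.12, adjusted p = 1.73e-06), though its probe may not separate it from the near-identical Ly6c2. Kcnh2, a potassium channel, was at least 4.76-fold higher, with 7.70 and 8.02 at L8, against 5.07 and 4.92 at L4, where neither array was above background. The monocarboxylate transporter Slc16a4 was at least 2.95-fold and the histone gene H2bc6 at least 3.31-fold higher at L8. Fbxo2, a ubiquitin ligase subunit that binds glycoproteins, rose by 2.22 ± 0.10, Igfbp7 by 2.06 ± 0.18 and the glycogen regulator Ppp1r3c by 1.96 ± 0.14. The secreted glycoprotein Stc2 gave 5.69 and 5.78 at L8, against 8.15 and 8.28 at L4 (-2.48 ± 0.12, adjusted p = 3.49e-06). Lgals3bp, which fell by 2.53 ± 0.11, is by contrast a member of the antiviral effector list and is counted there. Xist, the RNA of the inactive X chromosome, fell by 0.62 ± 0.11 (adjusted p = 0.00578), a call that was lost under median scaling.

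Genes that return were those past the threshold both in WT L4 vs L0 (1376 of 8891, 15.5%) and in WT L8 vs L4 with opposite sign. The 2 comparisons share the L4 arrays with opposite sign, so an L4 value that is off by chance pushes a gene towards this definition. By it 108 genes (1.21%) were higher at L4 and then lower at L8, and 126 (1.42%) were lower at L4 and then higher at L8. Under median scaling the counts were 46 and 46. Of the 108, 64 did not pass in L8 vs L0, 32 were still above L0 and 12 had gone below it. Of the 126, 87 did not pass in L8 vs L0, 23 were still below L0 and 16 had gone above it. A different L4 array was also used in each step, so that the error of 1 L4 array entered only 1 step. An error that both L4 arrays share is not removed in this way. The 20 genes named by the size of their changes kept their opposite signs in both orders. They were chosen on these same arrays, so this is no separate evidence of a return. The total of 234 was 133, 145, 123, 150 and 149 without L4 replicate 2, L8 replicate 1, L8 replicate 2, L0 replicate 1 and L0 replicate 2.

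The genes that were high at L4 included Lcn2, Saa3 and Col2a1. Lcn2, or lipocalin-2, which binds bacterial iron carriers, gave 4.75 and 4.72 at L0, 8.48 and 8.44 at L4, and 4.80 and 4.74 at L8. It was above background only at L4, and was at least 7.72-fold lower at L8 than at L4 (adjusted p = 5.35e-08). Saa3, an acute-phase protein, behaved alike, with 5.41 and 5.22 at L0, 7.71 and 7.47 at L4, and 5.01 and 5.06 at L8 (at least 4.22-fold lower at L8 than at L4). Col2a1, the collagen of cartilage, gave 5.45 and 5.22 at L0, 9.32 and 9.17 at L4, and 5.96 and 5.79 at L8, a late change of -3.37 ± 0.13. Neither L0 array was above background, so that the L4 level was at least 13-fold higher than at L0. Of 6 cartilage and bone markers 3 were above background on all 4 L8 and L4 arrays, of which Col2a1 and Acan, the main cartilage proteoglycan, fell between L4 and L8 and Sox9 (0.11) did not pass. Their summed signal was 282 and 314 at L0, 1180 and 1250 at L4, and 529 and 516 at L8, while the bone markers Sp7, Ibsp and Bglap were above background on none of the L8 and L4 arrays. The part of such cells in the result was not tested.

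Mmp13 gave 9.38 and 9.18 at L0, 12.30 and 12.23 at L4, and 7.41 and 7.39 at L8, so it ended below its starting level (L8 vs L0 -1.88, adjusted p = 9.75e-05). Mmp3 did so too, with 10.13 and 10.38 at L0, 11.62 and 11.96 at L4, and 8.23 and 8.48 at L8. Both proteases are classical targets of AP-1, the dimer of Fos and Jun proteins. Their RefSeq promoters are shown with matches to the AP-1 letters TGANTCA in capitals, 35 bases before the start in Mmp13 (chr9:7272264-7272563, plus strand) and 46 in Mmp3 (chr9:7445572-7445871, plus strand).
Mmp13: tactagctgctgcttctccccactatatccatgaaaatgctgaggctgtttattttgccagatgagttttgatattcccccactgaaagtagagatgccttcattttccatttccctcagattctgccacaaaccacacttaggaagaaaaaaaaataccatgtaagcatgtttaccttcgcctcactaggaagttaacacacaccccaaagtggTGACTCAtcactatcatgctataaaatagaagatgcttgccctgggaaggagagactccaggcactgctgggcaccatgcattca
Mmp3: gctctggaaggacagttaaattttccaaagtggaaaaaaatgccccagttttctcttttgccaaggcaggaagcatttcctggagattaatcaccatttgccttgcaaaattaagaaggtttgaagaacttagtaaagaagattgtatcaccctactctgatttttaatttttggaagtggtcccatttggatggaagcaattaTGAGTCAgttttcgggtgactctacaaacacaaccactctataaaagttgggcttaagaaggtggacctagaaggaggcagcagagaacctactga
Of the 108 genes that were high at L4, 80 had a listed promoter and 14 of these (17.5%) held the letters on either strand, and so did 6 of 35 (17.1%) interferon-list genes that fell, against 494 of 7278 tested genes (6.79%) and 2425 of 27025 listed genes (8.97%). Fos gave 7.91 and 7.95 at L0, 7.67 and 7.82 at L4, and 6.14 and 6.48 at L8, and its early change did not pass (-0.19 ± 0.19, adjusted p = 0.585). The part of AP-1 in these changes was not tested.

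Of the 75 tested members of the 4 interferon lists 3 rose early and fell late, against 1.21% of all genes. Ifi27l2a gave 7.26 and 8.15 at L0, 10.71 and 11.03 at L4, and 6.64 and 7.12 at L8 (early 3.17 ± 0.29, late -3.99 ± 0.29), and the others were Ifi27 (early 0.93 ± 0.17, late -0.85 ± 0.17) and the proteasome subunit Psmb10 (early 0.39 ± 0.10, late -0.76 ± 0.10). The proteoglycan decorin, Dcn, gave 6.61 and 6.76 at L0, 10.31 and 10.18 at L4, and 8.28 and 8.37 at L8, so it came back in part. The small GTPase Diras2, not above background at L0, gave 8.67 and 8.76 at L4, and 6.99 and 7.02 at L8 (late -1.71 ± 0.11), at least 2.76-fold above L0. The Wnt agonist Rspo2 (early 2.75 ± 0.20, late -2.09 ± 0.20) also stayed above L0. Rspo3, its relative, gave 7.84 and 7.42 at L0, 10.81 and 10.64 at L4, and 9.89 and 9.93 at L8. Ccdc3 did not pass in L8 vs L0 (-0.11), with 7.0 and 7.08 at L0, 8.75 and 8.63 at L4, and 6.80 and 7.06 at L8. Cox6a2, a muscle form of a respiratory subunit, was above background at L0 and L4 but not at L8 (at least 3.92-fold lower at L8 than at L4).

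Of 20 tested p53 targets 3 were low at L4 and then higher at L8, Trp53inp1, Phlda3 and Ccng1, against 1.42% of all genes. In the late step as a whole 5 of the 20 rose and 4 fell, with Cdkn1a (-0.57) among the falls. Ephx1, an epoxide hydrolase of detoxification, gave 10.28 and 10.32 at L0, 8.75 and 8.64 at L4, and 10.43 and 10.53 at L8 (early -1.61 ± 0.09, late 1.79 ± 0.09), and its L8 vs L0 change did not pass (0.18, adjusted p = 0.162). Trp53inp1, a p53 target, gave 8.62 and 8.71 at L0, 7.07 and 7.11 at L4, and 8.32 and 8.55 at L8. The p53 targets Phlda3 (early -1.13 ± 0.13, late 0.64 ± 0.13) and Ccng1 (early -1.42 ± 0.10, late 0.58 ± 0.10) came back only in part by the probes tested. Other Ccng1 probes, above background on all 4 L8 and L4 arrays, rose more in the late step, by 1.04 ± 0.13 and 1.11 ± 0.12. Dio3, an imprinted deiodinase that inactivates thyroid hormone, gave 9.46 and 9.67 at L0, 6.13 and 6.59 at L4, and 7.85 and 7.98 at L8. Tgm2, a protein cross-linking enzyme, gave 9.54 and 9.76 at L0, 8.41 and 8.56 at L4, and 10.42 and 10.45 at L8, above its first level (0.79, adjusted p = 0.00244).

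The imprinted gene Snrpn (early -1.12 ± 0.12, late 1.20 ± 0.12), whose other probe gave 0.00 in the late step, and the homeobox gene Hoxa7 (early -1.14 ± 0.12, late 1.15 ± 0.12) had early and late changes of nearly the same size. Ddit4l, Gask1b and the actin-binding Lsp1 rose by 1.37 ± 0.15, 1.52 ± 0.14 and 1.38 ± 0.19 in the late step. Arhgdib gave 9.19 and 9.32 at L0, 7.19 and 6.4 at L4, and 8.19 and 7.71 at L8. Its late change of 1.16 ± 0.25 (adjusted p = 0.0111) missed the threshold without L8 replicate 1 (0.92, adjusted p = 0.079).

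**Figure D4:**
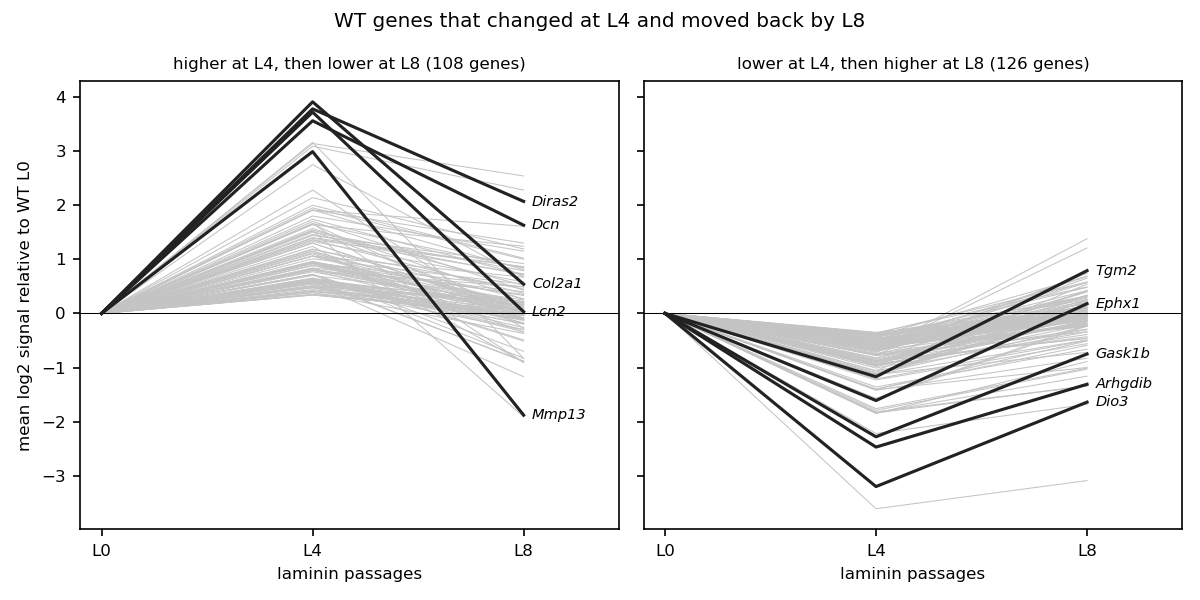
Each line is a returning WT gene, drawn as its mean log2 signal relative to WT L0 (y axis) at L0, L4 and L8 (x axis), with the 108 genes that were higher at L4 on the left and the 126 that were lower on the right. Mmp13 ends at -1.88, while Dcn remains 1.64 above L0. Genes not above background at L0, such as Diras2 and Lcn2, are drawn at their measured values, which give no exact distance from L0.

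Over the same step 128 of 8891 genes (1.44%) of the YYFF clone passed the threshold in L8 vs L4, 36 higher (0.405%) and 92 lower (1.03%). The difference between the clones in this step, WT minus YYFF, passed for 947 genes (10.7%), 560 positive (6.3%) and 387 negative (4.35%). Under median scaling in place of quantile normalization that split was 337 positive and 134 negative. The total of 947 was 620, 481, 549, 487 and 500 without WT L4 replicate 2, WT L8 replicate 1, WT L8 replicate 2, YYFF L4 replicate 1 and YYFF L4 replicate 2. For the antiviral effectors the YYFF median was 0.00 and 23 of 30 passed in the clone difference with a negative sign, and for the sterol enzymes it was -0.12 and 12 of 14 passed with a positive sign. Most of the genes named here were chosen for their change in WT, so these counts describe them and are no separate evidence.

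The levels show where the clones stood. Usp18 in YYFF gave 12.53 and 12.49 at L0, 7.97 and 7.72 at L4, and 8.14 and 8.22 at L8, so its low level was there at L4 already. Isg15 in YYFF gave 12.44 and 12.62 at L0, 9.63 and 9.54 at L4, and 9.12 and 9.26 at L8. Mvd in YYFF gave 7.4 and 7.29 at L0, 9.67 and 9.68 at L4, and 9.66 and 9.48 at L8, close to the WT level at L8 (9.41 and 9.43). Mmp13 in YYFF gave 8.23 and 7.96 at L0, 5.03 and 5.49 at L4, and 5.69 and 5.26 at L8, with no high value at L4.

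Some genes moved in opposite directions in the clones. Hs3st3a1 rose in WT (2.57 ± 0.12) and fell in YYFF (-1.13, adjusted p = 0.00236), and the exchange factor Arhgef6 rose in WT (1.14 ± 0.19) and fell in YYFF (-1.50, adjusted p = 0.00613). Tgm2 (1.95 ± 0.14 in WT, -0.75 in YYFF) and Trp53inp1 (1.34 ± 0.10 in WT, -0.90 in YYFF) did the same. Ifit3 fell in WT (-3.18 ± 0.09) and rose in YYFF (0.71, adjusted p = 0.00613). Fst fell in both (-3.19 in WT, -1.01 in YYFF), and so did Lgals3bp (-2.53 in WT, -0.82 in YYFF).

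**Figure D5:**
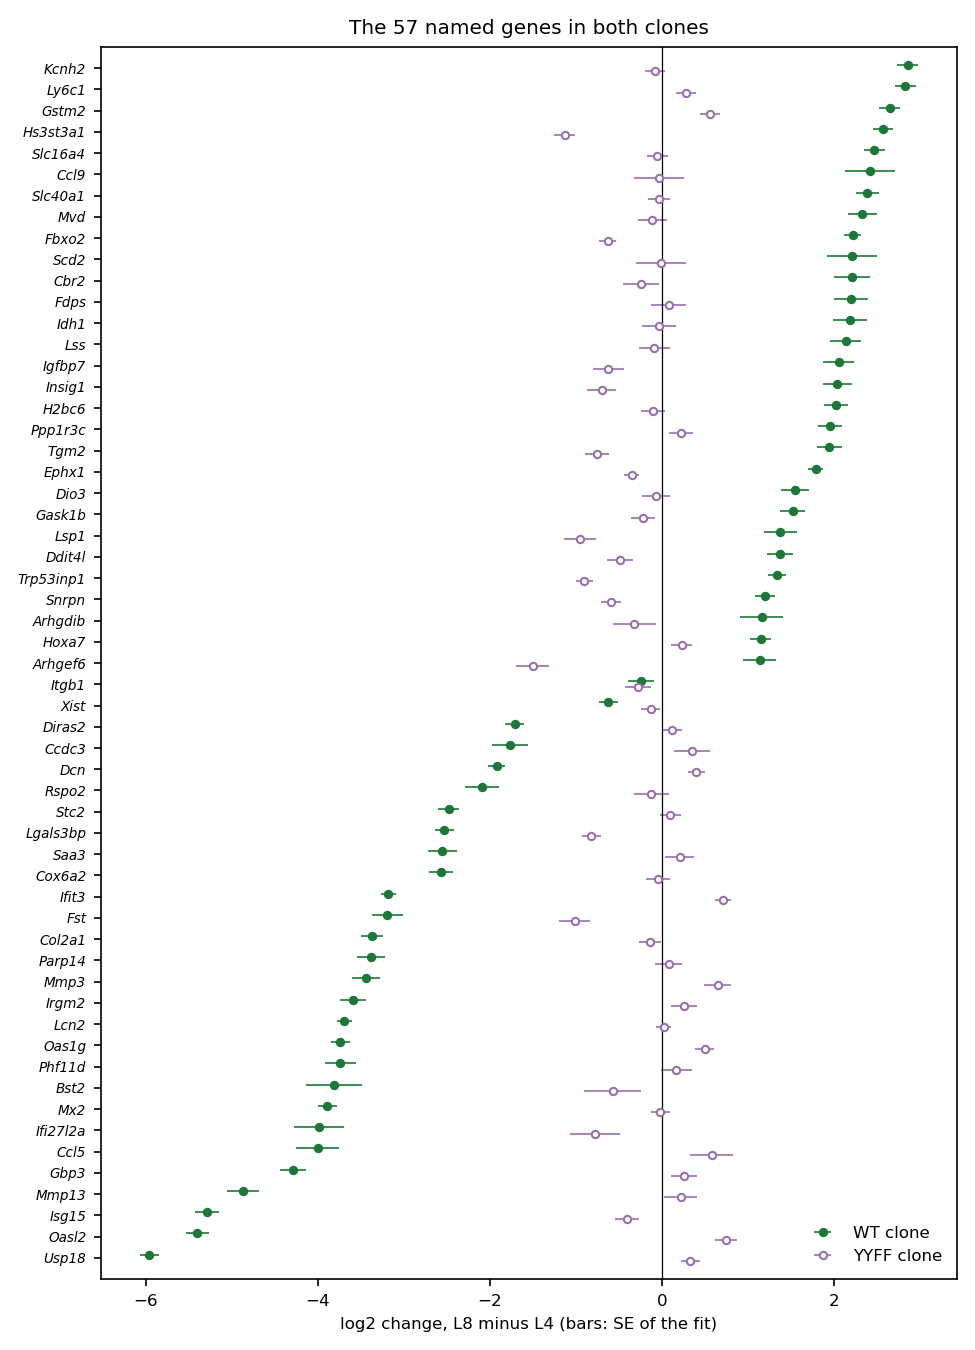
Log2 change, L8 minus L4 (x axis), of the 57 named genes in the WT clone (filled points) and the YYFF clone (open points), with bars for the SE of the limma fit. The WT change is -5.96 for Usp18 and 2.83 for Ly6c1, and YYFF changes lie between -1.50 (Arhgef6) and 0.75 (Oasl2). Genes not above background in a group, such as Kcnh2 at L4, are drawn at their fitted values.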

How the data were processed

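RNA of 12 samples was measured on Illumina bead arrays (100 ng of RNA each, per the labels' protocols). For 25697 probes the authors deposited non-normalized bead signal intensities with, per the file headers, their detection p-values. The authors' processed table also holds intensities. In it 11 of 12 columns share one distribution, but that of WT L0 replicate 2 was left non-normalized. The submitters' processing notes name limma. Groups and replicate numbers came from the titles.

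With limma 3.58.1 in R 4.3.3, intensities went through normexp background correction (offset 16, background estimated from detection p-values), quantile normalization and log2. Probes with a detection p under 0.05 on at least 2 arrays were kept (12974). Of 23978 probes with 1 gene symbol (1719 had none), 23962 were updated by Entrez ID and 9 by accession to RefSeq GRCm38.p6. The probe with the highest mean stood for its gene. A 6-group model with eBayes (6 residual and 2.91 prior degrees of freedom) gave each contrast, and was tested on simulated data. The number of arrays limits the precision.

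Named genes were, in WT L8 vs L4, the 15 largest changes per direction above background on all 4 arrays that passed with any 1 left out; up to 4 per direction detected in 1 group; 10 returning genes per direction by the smaller of their changes; up to 8 called members per list; the 8 largest clone differences per direction; and Itgb1 and Xist. Predicted genes were passed over. The members and lists were chosen with earlier results of these data known. Rigi was read as Ddx58.

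Replicate numbers were checked for pairing by the correlation of deviations from group means, 0.35 for L8 with L4 by the titles and -0.35 by the descriptions, whose numbers differ. The labels do not pair the samples, so no block was used. Alternatives were background correction, offset 50, median scaling, filters, probe choice, the compared arrays alone, the authors' table, a replicate block and each array left out.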

Additional observations from a re-analysis of the deposited data

Results flagged for a closer look

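The change from L4 to L8 differed between the clones for 947 genes in the limma test of the difference itself, WT minus YYFF, and this difference in log2 change was what marked each gene below. The 8 most negative were Usp18 (-6.30), Oasl2 (-6.15), Mmp13 (-5.08), Isg15 (-4.89), Ccl5 (-4.58), Gbp3 (-4.55), Oas1g (-4.24) and Mmp3 (-4.09). Each fell in WT, and in YYFF Oasl2 rose by 0.75 (adjusted p = 0.0276) while the other 7 did not pass. Mmp13 and Mmp3 were above background on 0 of 2 YYFF L4 arrays and 1 of 2 YYFF L8 arrays. A fall in YYFF could thus hardly show for them, and their differences are fitted values. The 8 most positive were Hs3st3a1 (3.71), Kcnh2 (2.94), Fbxo2 (2.84), Insig1 (2.74), Tgm2 (2.70), Igfbp7 (2.68), Arhgef6 (2.64) and Ly6c1 (2.55). The value of Kcnh2 is a fitted one with no firm place in this order, its L4 and YYFF L8 signals not being above background. Of these, Hs3st3a1, Fbxo2, Tgm2 and Arhgef6 also fell in YYFF. In all, 55 of the 57 named genes passed, against 10.7% of all genes, but most were chosen for their change in WT. Some, such as Mx2, Parp14, Lcn2, Saa3, Col2a1 and Cox6a2, were above background on no YYFF array at L4 or L8. A fall in YYFF could not show for them, so their passing largely restates the fall in WT. Itgb1 and Xist did not pass. Xist was above background on both arrays of each WT group but on no YYFF array, so a YYFF change could not be read for it. With 2 arrays a group, no array could be tested as standing apart from its group.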

How the results depend on the processing

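Of the 57 genes named by size, by clone difference or fixed by name, those called kept their direction under all alternatives run, and 2 missed the threshold in 1 or more: Xist under median scaling, and Arhgdib with the compared arrays alone or without L8 replicate 1. The genes named for the largest changes were admitted only if they passed with any 1 of the 4 arrays left out. Their passing in those fits was thus set by the selection and is no evidence of stability. Of 219 called list members, 80 were lost with 1 of the 4 arrays left out. Under median scaling the counts were 865 in WT L8 vs L4 (550 higher, 315 lower), 92 returning genes (46 up then down, 46 down then up), 471 in the clone difference (337 positive, 134 negative) and 3 stress response genes lower. With the compared arrays alone they were 890 (514 higher, 376 lower), 152 returning (76 down then up), 600 (356 positive, 244 negative), 8 immediate early genes lower, 5 lysosomal genes higher and 3 stress response genes lower. The stricter filter left 4 genes of MHC class I lower. With a different L4 array in each step, returning genes numbered 116 (58 up then down, 58 down then up) with replicate 1 in the early step, and 112 (57 and 55) with replicate 2. The cause of these shifts was not tested.

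Leaving out 1 array gave 887 to 1218 genes in WT L8 vs L4 (489 to 659 higher, 398 to 559 lower), 123 to 176 returning (62 to 96 up then down, 61 to 80 down then up) and 481 to 989 in the clone difference (293 to 565 positive, 188 to 424 negative). It gave 24 to 26 antiviral effectors, 6 to 6 GTPases, 5 to 8 MHC class I genes, 9 to 12 immediate early genes and 2 to 4 stress response genes lower, and 11 to 12 sterol enzymes, 9 to 10 fatty acid genes, 5 to 7 glutathione transferases and 6 to 7 lysosomal genes higher. The lone array of a group is then assumed to vary like the other groups. With the replicate number as a block, 1979 genes passed in WT L8 vs L4, 276 returned and 1087 passed in the clone difference. The labels do not pair the samples: title numbers gave correlations of deviations of 0.17 to 0.35, but those of the descriptions run the other way in 3 of 6 groups, WT L4 among them, and gave -0.35 for L8 with L4. A replicate block by those numbers, chosen after seeing the data, gave 1268, 146 returning (71 down then up), 553 in the clone difference (335 positive, 218 negative) and 5 stress response genes lower. Genes near background have only bounds on their change.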
